A study of Mus musculus with 96 samples.

Results

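The genes of mitochondrial oxidative phosphorylation that are encoded in the nucleus were followed through the open-chromatin peaks named for them in mouse liver. Members were the peaks of both deposited peak tables whose nearest transcription start site (TSS) belongs to a gene with a name starting Nduf, Uqcr, Cox4 to Cox8 or Atp5, or to Sdha, Sdhb, Sdhc or Sdhd, and lies at most 10 kb away. The rule found 138 of 46832 peaks in hepatocyte nuclei, named for 79 genes, and 106 of 30170 peaks in macrophage nuclei, named for 75 genes. Together they cover 81 genes, and every member passed the filter on low values. A peak takes the name of its nearest TSS, which does not show that it regulates that gene. Of the members, 108 hepatocyte and 93 macrophage peaks lie within 1 kb of the TSS, called promoter peaks below.

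Oxidative phosphorylation runs through multi-subunit complexes of the inner mitochondrial membrane. Complex I takes electrons from NADH and complex II takes them from succinate, complex III hands them to cytochrome c, complex IV gives them to oxygen, and complex V, the ATP synthase, makes ATP from the proton gradient built up on the way. Assembly factors such as the Ndufaf proteins help to build complex I without staying in it. In the fasting liver fatty acid oxidation delivers electrons to this chain, and ATP from it is used for glucose synthesis.

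Female HEP-INTACT and MAC-INTACT mice were either fasted from ZT12, the start of the active phase, or fed ad libitum and killed at the same times, and nuclei tagged in hepatocytes or in macrophages were captured from their livers on beads. Fasts of 3, 8, 16 and 24 h ended at ZT15, ZT20, ZT4 and ZT12. ATAC-seq, in which a transposase cuts accessible DNA, gave 16 groups of 4 mice, and the mouse was the replicate. The feeding states of the macrophage samples end in lys, a term the labels do not explain, and what drives the tag on the nuclei, the strain and the age are not given in the sources used here. Macrophage samples had been run as technical duplicates and stand as 1 column per mouse. The libraries held between 2458156 and 6098645 reads in the listed peaks for hepatocytes and between 1729720 and 4637873 for macrophages. All 12 hepatocyte marker genes had peaks in the hepatocyte table and 0 of 12 in the macrophage table, while macrophage markers had peaks for 12 of 12 genes in the macrophage table and 1 of 12 in the hepatocyte table. The summed level of the 75 hepatocyte marker peaks was 5694 to 6976 normalized reads in the fasted mice and 4617 to 5481 in the fed mice at 3 h, and 7326 to 7966 in the fasted and 5067 to 5686 in the fed mice at 24 h. At 8 h these sums overlapped, with 4902 to 7087 in the fasted and 4814 to 5825 in the fed mice. They also overlapped at 16 h, with 4932 to 6596 in the fasted and 5365 to 6418 in the fed mice. The summed level of the 34 macrophage marker peaks was 1633 to 1959 in the fasted mice and 2037 to 2352 in the fed mice at 16 h. The macrophage sums overlapped at the other times. The part of these shifts in the results at the same times was not tested.

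For each complex a promoter that opened at 24 h in hepatocytes is shown first, so that its letters can be read beside its values. The promoters were chosen after the values were seen, by the smallest p-value among the opened peaks that overlap a promoter in the RefSeq table for GRCm38.p6, the assembly that mm10 names. Genes without a match there, Uqcrq among them, could not be chosen. Each sequence runs 5′ to 3′ along the gene from 250 bases before the TSS to 30 after it, and capitals mark matches to the motifs described below. 
Ndufa6 promoter, chr15:82354262-82354541, minus strand: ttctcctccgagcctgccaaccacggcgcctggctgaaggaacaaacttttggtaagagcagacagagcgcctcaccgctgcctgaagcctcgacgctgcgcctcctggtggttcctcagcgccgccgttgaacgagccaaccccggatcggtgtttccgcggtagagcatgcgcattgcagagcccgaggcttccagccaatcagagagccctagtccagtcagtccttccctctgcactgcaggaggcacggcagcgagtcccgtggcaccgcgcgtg
Sdhb promoter, chr4:140961021-140961300, plus strand: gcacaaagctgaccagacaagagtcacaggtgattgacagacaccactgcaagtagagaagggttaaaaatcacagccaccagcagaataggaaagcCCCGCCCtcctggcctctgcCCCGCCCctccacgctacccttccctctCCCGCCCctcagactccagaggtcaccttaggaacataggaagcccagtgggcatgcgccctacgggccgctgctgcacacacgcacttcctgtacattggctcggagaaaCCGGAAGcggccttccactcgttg
Uqcr11 promoter, chr10:80406792-80407071, minus strand: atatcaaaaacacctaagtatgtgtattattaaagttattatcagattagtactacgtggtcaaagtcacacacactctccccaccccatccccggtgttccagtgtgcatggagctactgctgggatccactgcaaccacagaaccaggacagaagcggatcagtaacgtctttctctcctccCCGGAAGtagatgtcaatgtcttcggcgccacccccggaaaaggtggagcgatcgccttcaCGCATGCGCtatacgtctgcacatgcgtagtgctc
Cox5a promoter, chr9:57520982-57521261, plus strand: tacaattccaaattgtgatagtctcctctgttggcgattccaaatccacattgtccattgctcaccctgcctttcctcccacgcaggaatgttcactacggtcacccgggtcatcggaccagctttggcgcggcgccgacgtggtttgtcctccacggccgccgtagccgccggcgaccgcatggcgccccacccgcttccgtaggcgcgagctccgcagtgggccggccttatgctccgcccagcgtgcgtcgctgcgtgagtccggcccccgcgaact
Atp5g1 promoter, chr11:96075602-96075881, minus strand: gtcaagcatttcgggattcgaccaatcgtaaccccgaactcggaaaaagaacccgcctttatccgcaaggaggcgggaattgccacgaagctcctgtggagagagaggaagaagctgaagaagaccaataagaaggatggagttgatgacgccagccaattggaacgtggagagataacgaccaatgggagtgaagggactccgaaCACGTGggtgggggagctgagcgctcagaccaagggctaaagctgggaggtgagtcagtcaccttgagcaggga
Capitals in the Sdhb promoter mark GC boxes on the opposite strand that begin at -153, -133 and -105, and an ETS core that begins at 6 after the TSS. The Uqcr11 promoter holds an ETS core at -66 and an NRF1 core on the opposite strand at -5, and the Atp5g1 promoter an E-box at -44. The Ndufa6 and Cox5a promoters held no match. The Sdhb GC boxes at -153 and -133 and the Atp5g1 E-box at -44 lie outside the opened peaks whose values are given below.

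These motifs were counted in all RefSeq promoters of 300 bases, 250 before and 50 after the TSS, on both strands. A promoter was found for 68 of the 81 genes, which gave 73 promoters, against 32851 in all. The NRF1 core GCGCATGCG was present in 9 member promoters, 12.3% against 1.75% of all. The core CCGGAAG of ETS factors, among them GABP, stood in 17, 23.3% against 8.86%, and the YY1 core AAGATGGCG in 7, 9.59% against 1.40%. The ERR core TCAAGGTCA was found in 2 (2.74% against 0.423%), the CRE TGACGTCA in 3 (4.11% against 1.79%), the GC box GGGCGGG in 25 (34.2% against 25.6%) and the E-box CACGTG in 6 (8.22% against 7.15%). Member promoters were richer in G and C, with a median of 58.7% against 52.7%. Another gene starts on the opposite strand within 1 kb for 21 of the 68 matched genes (30.9%), against 4262 of 27025 genes (15.8%), so a promoter peak can belong to a pair of genes. A match is a description of letters and not a binding site.

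In hepatocyte nuclei, members went from slightly more closing than opening at 3 h to mostly opening at 16 and 24 h of fasting. A peak is called opened or closed where limma's adjusted p of fasted against fed mice was under 0.05. At 3 h, 5 members opened and 11 closed, against 9.98% and 7.56% of the other 26666 tested peaks within 10 kb of a TSS. At 8 h, 25 opened and 9 closed, against 19.5% and 9.18%. At 16 h, 42 opened and 7 closed, against 19.8% and 7.46%, and at 24 h, 63 opened and 5 closed, against 32.7% and 6.3%. As shares of the members with the values as deposited, 3.62, 18.1, 30.4 and 45.7% opened at the 4 times. This was near the background at 8 h, below it at 3 h and above it at 16 and 24 h. Under the 4 other scalings named below the 8 h share was below the background, at 7.97 to 9.42% beside 13 to 14.5%. The opened peaks were named for 5, 21, 36 and 44 genes.

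The median log2 fold change of the members was -0.05, 0.14, 0.23 and 0.27 at 3, 8, 16 and 24 h, and that of the other peaks was -0.00, 0.11, 0.14 and 0.22. These levels depended on the scaling. At 8, 16 and 24 h the member medians were 0.05, 0.17 and 0.20 after median centring (others 0.02, 0.08 and 0.15), 0.03, 0.12 and 0.15 with quantile normalization (others 0.01, 0.04 and 0.09) and 0.07, 0.14 and 0.15 with edgeR (others 0.04, 0.05 and 0.09). Of the 138 members, 51, 104, 120 and 119 were higher in the fasted mice. The member median minus that of the other peaks was -0.05, 0.03, 0.09 and 0.05, and it kept its sign at each time under every scaling tried and without any 1 mouse.

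How many members passed depended on the scaling and on single mice. After each library was centred on its median over all peaks, 12 opened and 12 closed at 8 h, 22 and 10 at 16 h, and 37 and 5 at 24 h, which is 8.70, 15.9 and 26.8% of the members beside 13, 13.5 and 21% of the other peaks opened. Of the peaks opened as deposited, 10 of 25 at 8 h, 12 of 42 at 16 h and 15 of 63 at 24 h also passed under each of 4 other scalings, namely centring, quantile normalization, edgeR and DESeq2, and so did 8 of 9, 6 of 7 and 5 of 5 closed peaks. With quantile normalization 15 opened and 7 closed at 16 h, and 24 and 8 at 24 h, which is 10.9 and 17.4% of the members beside 10.1 and 12.4% of the others opened, so that the share opened at 16 h was near the background under both scalings. Centring lowered the median log2 fold change over all hepatocyte peaks, by at most 0.08. In macrophages it raised that median from -0.07, -0.10 and -0.06 to 0.04, 0.04 and 0.05 at 8, 16 and 24 h. The count opened at 16 h was 25 without fed mouse 1 and 20 without fasted mouse 3, that at 8 h was 15 without fed mouse 1, 10 without fed mouse 3 and 12 without fasted mouse 4, and that at 24 h was 42 without fasted mouse 4. The count closed at 3 h was 7 without fed mouse 1, 6 without fed mouse 2, and 7 without fasted mouse 1 or fasted mouse 3. Without fed mouse 4 or fasted mouse 1, 5 closed at 8 h, and without fed mouse 1, fed mouse 2, fasted mouse 2 or fasted mouse 4, 3 closed at 24 h.

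**Figure D1:**
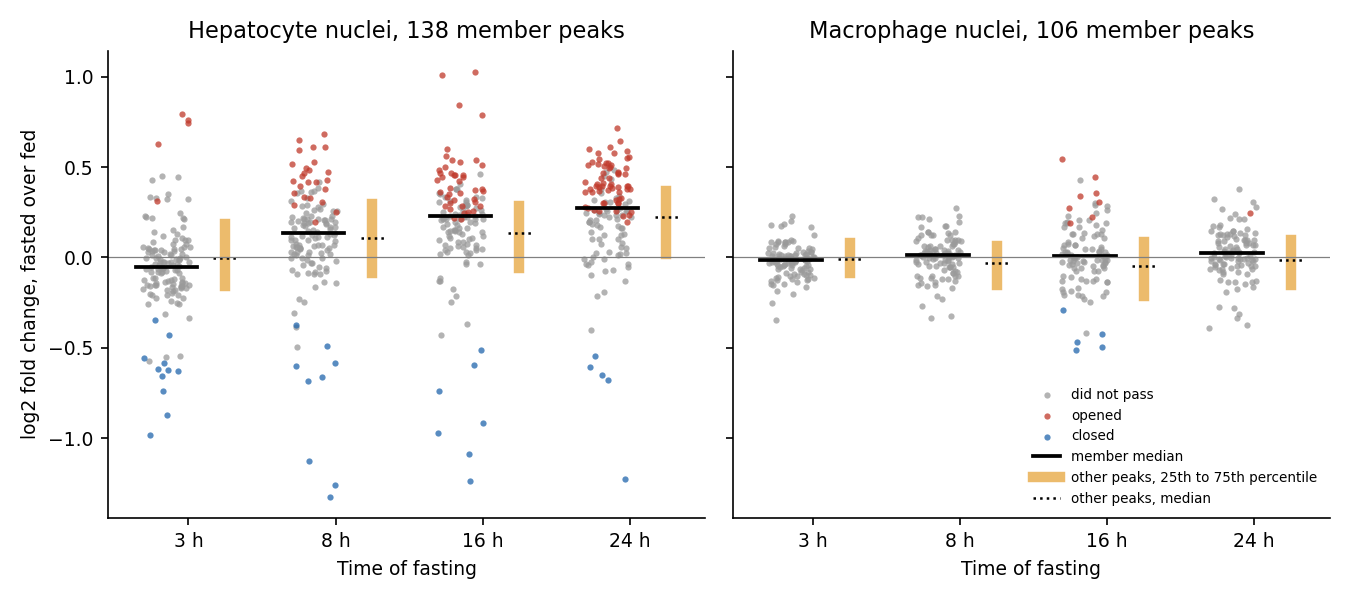
Each point is a member peak, with its log2 fold change of fasted over fed mice on the vertical axis and the time of fasting on the horizontal axis. Black lines are member medians, orange bars span the 25th to 75th percentile of the other peaks within 10 kb and dotted lines their median. With the values as deposited, hepatocyte medians run from -0.05 at 3 h to 0.27 at 24 h and macrophage medians from -0.01 to 0.03. After median centring they are 0.20 in hepatocytes and 0.13 in macrophages at 24 h.

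Mice were also described singly by the mean deviation of the members from their mean over all mice, minus that of the other peaks within 10 kb, on the log2 scale. At 3 h the fasted hepatocyte mice lay at -0.033, -0.084, -0.075 and -0.092 and the fed mice at 0.020, 0.030, -0.029 and -0.013. All 4 fasted mice were below the lowest fed mouse, but not with promoter peaks alone, set against other promoter peaks. There fasted mouse 1 was at -0.028 and fed mice 3 and 4 at -0.053 and -0.030. At 8 h the fasted mice were between -0.0029 and 0.058 and the fed mice between -0.015 and 0.046, and the groups overlapped. At 16 h the fasted mice were at 0.057, 0.0051, 0.137 and 0.051 and the fed mice at -0.035, -0.037, 0.0072 and -0.047, so that fasted mouse 2 fell just below the highest fed mouse. At 24 h the fasted mice stood at 0.0070, 0.075, 0.029 and 0.093 and the fed mice at -0.056, -0.060, -0.021 and -0.012, without overlap. The pooled SD of this value within groups was 0.033. With promoter peaks alone the groups were apart at 16 and 24 h and overlapped at 8 h.

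**Figure D2:**
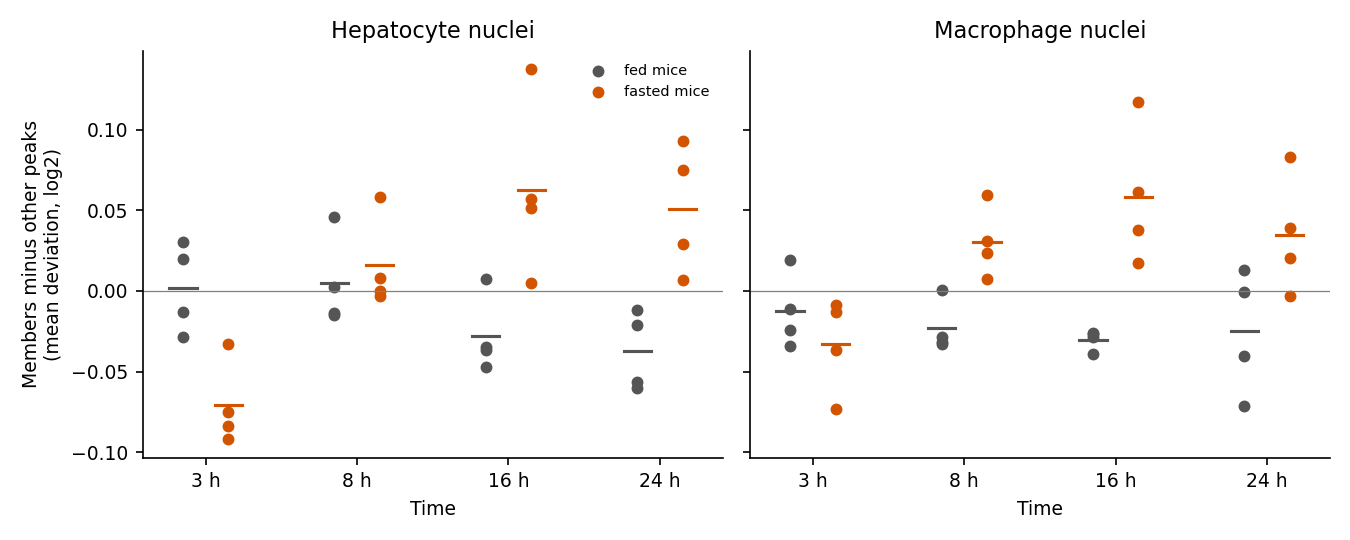
Each point is 1 mouse, with the mean deviation of the members minus that of the other peaks within 10 kb on the vertical axis (log2) and the time of fasting on the horizontal axis, for fed and fasted mice. In hepatocytes the fasted mice are the lower group at 3 h and the higher at 24 h. In macrophages all fasted mice lie above all fed mice at 8 and 16 h. With promoter peaks alone, not drawn here, the groups overlap in hepatocytes at 3 h and in macrophages at 8 h.

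Most opened members were promoter peaks, as were most members, and most closed members lay farther out, where other peaks also closed more often. Of the 108 promoter members 4, 22, 36 and 58 opened at 3, 8, 16 and 24 h, and 3, 2, 0 and 0 closed. Other promoter peaks opened in 8.83, 19, 20.1 and 41% and closed in 4.19, 4.25, 3.04 and 2.37%. At an unadjusted p under 0.05, 2 promoter members were lower at 16 h and 0 at 24 h, edgeR closed 2 and 0 and DESeq2 2 and 0, and with quantile normalization 1 and 3 closed. The 30 members from 1 to 10 kb opened in 1, 3, 6 and 5 cases and closed in 8, 7, 7 and 5. Other peaks of that distance opened in 11.8, 20.2, 19.3 and 19.6% and closed in 12.8, 16.9, 14.3 and 12.4%. Median changes were -0.04, 0.17, 0.24 and 0.31 for the promoter members, against 0.01, 0.12, 0.16 and 0.26 for other promoters. They were -0.15, -0.05, 0.09 and 0.02 for the members farther out, against -0.02, 0.05, 0.07 and 0.11 for other peaks there.

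**Figure D3:**
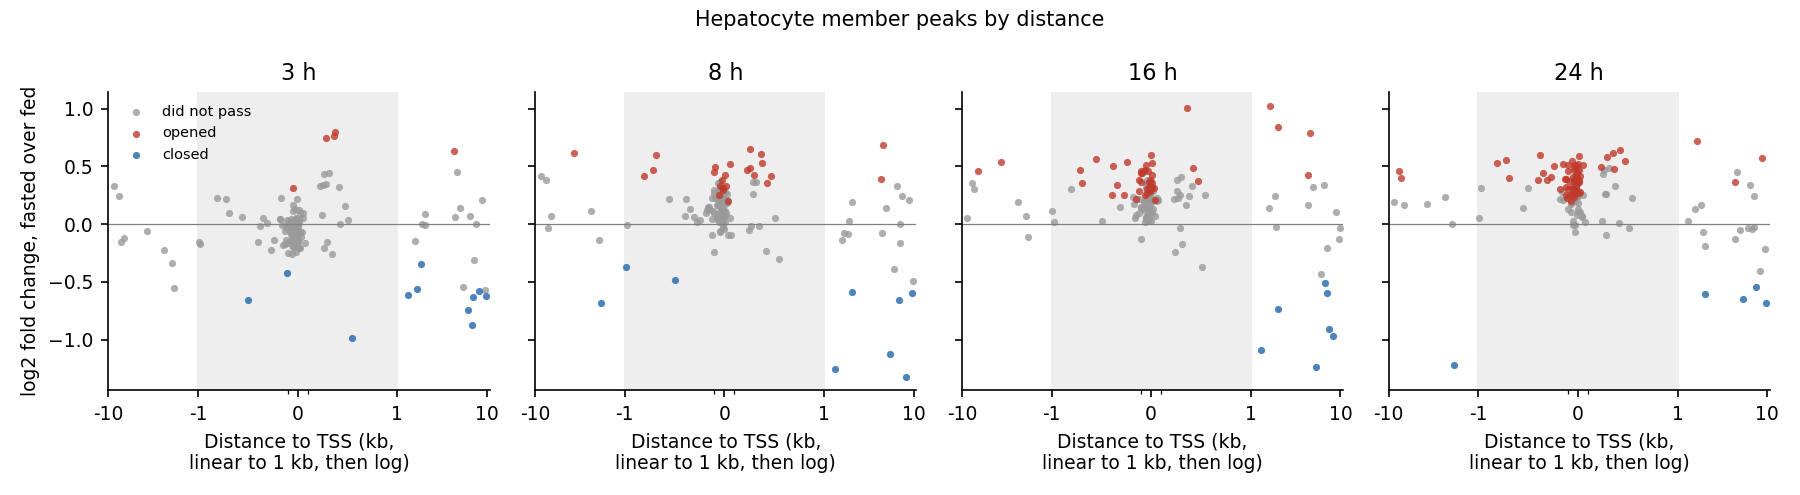
Each point is a hepatocyte member peak, with its distance from the TSS on the horizontal axis (kb, linear to 1 kb and logarithmic beyond) and its log2 fold change of fasted over fed mice on the vertical axis, in 1 panel per time. The shaded band marks the promoter peaks. With the values as deposited, no closed peak lies in the band at 16 and 24 h.

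The members opened at 16 h and at 24 h, where the fed controls were other mice, shared 31 peaks, 73.8% of the 42 at 16 h and 49.2% of the 63 at 24 h. Among the other peaks 3084 were shared, 58.5% of the 5272 opened at 16 h and 35.4% of the 8715 opened at 24 h. Over the 4 times 81 of the 138 members opened at least once, 17 closed at least once, and 41 were never called, against 49.7, 17.3 and 35.2% of the other peaks. The Atp5c1 peak at 364 bp opened at every time, and the Sdhd peak at 1649 bp was alone in both opening and closing. The fasting effect differed between times in 30 members by limma's F test, against 21.1% of the other peaks. In the fed mice 20 members differed between times, against 19%, and this count was 13 without fed 16 h mouse 3, fed 24 h mouse 2 or fed 24 h mouse 4.

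All of the complexes had opened members at 24 h, a time at which 32.7% of the other peaks opened and 6.3% closed. Peaks were grouped by gene name alone, so any Nduf name other than Ndufaf counted as complex I, Ndufa4l2 among them. Complex I, with 51 peaks of 34 genes, opened 21 and closed 2, and the complex I assembly factors, with 14 peaks of 7 genes, opened 3 and closed 1. Complex II opened 5 and closed 1 of 9 peaks of 4 genes. Complex III opened 6 of 14 and complex IV 8 of 17, with 0 closed in each by limma. Complex V opened 20 and closed 1 of 33 peaks of 15 genes. With the values as deposited, the assembly factors thus opened in a smaller share than the other peaks within 10 kb and the complexes themselves in a larger one, on small numbers of peaks. Most members are promoter peaks, and with promoter peaks alone the background was higher, at 41%. Complexes I and III, with 21 of 51 and 6 of 14 opened, were near that share. Counts by complex are not given here for promoter peaks alone or under other scalings. Median changes at 24 h were 0.26 for complex I, 0.39 for II, 0.31 for III, 0.25 for IV, 0.30 for V and 0.20 for the assembly factors, beside 0.22 for the other peaks.

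For complex I, the Ndufa6 promoter peak (chr15:82354249-82354449 in mm10), named for an accessory subunit, had at 24 h normalized reads of 122, 115, 141 and 129 in the fed mice and 186, 187, 192 and 177 in the fasted mice. All fasted mice were above all fed mice, and the log2 fold change was 0.55 ± 0.09 (SE, n = 4, limma adjusted p = 3.49e-05). It was 0.25 at 8 and at 16 h (adjusted p = 0.0297 and 0.0305) and -0.18 at 3 h, which did not pass (adjusted p = 0.148). The 24 h call held in every alternative, but those at 8 and 16 h were lost after median centring (adjusted p = 0.132 and 0.0863). The highest promoter member among complex I subunits was Ndufa5 at 40 bp, another accessory subunit, with 232 ± 16.9 (SD, n = 4) in the fed and 244 ± 15.9 in the fasted mice at 24 h and no call then. It opened at 8 h (0.20, adjusted p = 0.0353) and 16 h (0.21, adjusted p = 0.0263), and both calls were lost after centring (adjusted p = 0.252 and 0.127).

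An intronic peak of Ndufs7, the iron-sulphur subunit next to the quinone site of complex I, went the other way (chr10:80254726-80254926, intron 4 of 7). At 16 h the fed mice had 96.5, 109, 67.8 and 83.9 normalized reads and the fasted mice 44.0, 50.9, 18.4 and 41.0. The groups did not overlap, and the log2 fold change was -1.24 ± 0.23 (SE, n = 4, limma adjusted p = 6.7e-05). It closed by -1.12 at 8 h and -0.65 at 24 h, and at 3 h had -0.55 with an adjusted p of 0.0791. The 24 h call was lost without fed mouse 3, fasted mouse 1 or fasted mouse 2 (adjusted p = 0.0732, 0.0986 and 0.0593). The peak of Ndufa4l2 at 1314 bp, a paralogue of Ndufa4 known for induction in hypoxia, closed at 3, 8 and 16 h and had similar means in both groups at 24 h. At 8 h it had 34.0, 39.0, 36.2 and 35.7 in the fed and 15.7, 12.7, 13.2 and 14.5 in the fasted mice, a change of -1.26 ± 0.20 (SE, n = 4, limma adjusted p = 4.94e-06) without overlap. At 16 h it had 37.8, 43.2, 38.3 and 36.1 in the fed and 25, 21.8, 12.8 and 12.2 in the fasted mice, again without overlap (-1.09, adjusted p = 5.44e-05). The 3 h change of -0.62 lost its call without fed mouse 1, 2 or 4 or fasted mouse 1 or 3 (adjusted p from 0.0545 to 0.0808). At 24 h the means were 32 ± 4.27 (SD, n = 4) in fed and 32.7 ± 5.49 in fasted mice. The effect differed between times (F test, adjusted p = 0.00329).

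The peak of the accessory subunit Ndufa8 at 9806 bp had log2 changes of -0.62 at 3 h and -0.68 at 24 h and was called closed at both (adjusted p = 0.0391 and 0.0158), though at 3 h not without fed mouse 1 or 3 or fasted mouse 1, 2 or 4 (adjusted p from 0.0546 to 0.127). Among assembly factors, the Ndufaf6 peak at 8210 bp, in intron 3 of 8, closed at 3, 8 and 16 h, with -0.58, -1.32 and -0.97, and its 3 h call was lost without any 1 mouse but fasted mouse 4 (adjusted p from 0.0596 to 0.128). Its fed values at 8 h were 44.1, 35.3, 43.2 and 38.7 and its fasted values 9.25, 12.7, 25.3 and 15.9, without overlap. The intergenic Ndufaf4 peak at -1853 bp had 25.1, 28.6, 26.5 and 28.9 in the fed and 6.88, 11.4, 11.7 and 13.1 in the fasted mice at 24 h. Its change was -1.22 ± 0.25 (SE, n = 4, limma adjusted p = 0.000376), again without overlap, while the other named peaks of the same gene, at -104 and 260 bp, had 0.13 and 0.47 at that time and no call. The Ndufaf8 peak at 544 bp fell from 28.0 ± 3.55 to 13.3 ± 3.16 at 3 h (SD, n = 4, -0.98, limma adjusted p = 0.000322) and was not called later. The Ndufaf3 peak at 349 bp opened at 24 h alone, from 36.2 ± 3.50 to 56.3 ± 3.67 (SD, n = 4, 0.61, limma adjusted p = 0.00542).

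**Figure D4:**
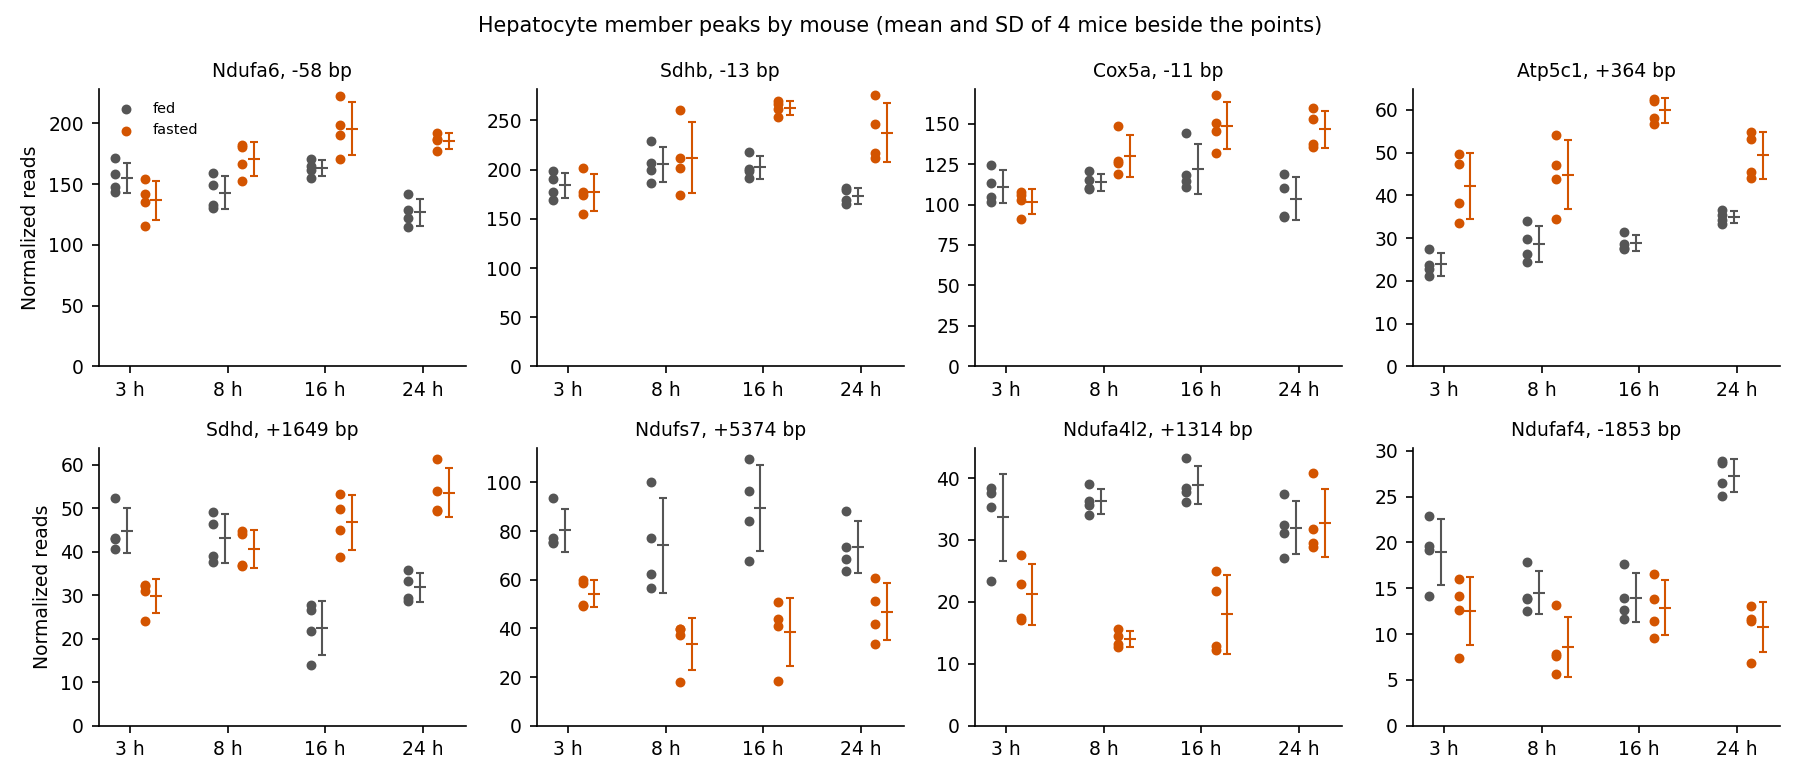
Normalized reads in hepatocyte nuclei (vertical axis, from 0) of selected member peaks at each time of fasting (horizontal axis). Each point is 1 mouse, grey fed and orange fasted, with the mean and SD of 4 mice beside them. Ndufa6, Sdhb and Cox5a promoter peaks separate the groups at 24 h, the Sdhd peak changes direction between 3 and 16 h, and the Ndufs7 peak is lower in fasted mice at each time.

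For complex II, the promoter peak of Sdhb, the iron-sulphur subunit, had no call at 3 and 8 h (-0.06 and 0.03) and opened later. At 16 h its normalized reads were 199, 201, 218 and 191 in the fed and 267, 253, 262 and 270 in the fasted mice, and at 24 h 182, 165, 179 and 169 in the fed and 246, 211, 217 and 276 in the fasted mice. The groups did not overlap at either time, with changes of 0.38 ± 0.09 and 0.44 ± 0.09 (SE, n = 4, limma adjusted p = 0.00205 and 0.000544). The effect differed between times (F test, adjusted p = 0.00777), and with quantile normalization both calls were lost (adjusted p = 0.0781 and 0.128). The peak in intron 1 of Sdhd, a membrane anchor of the complex, lies at chr9:50602100-50602300, and the TSS of Timm8b on the opposite strand is 52 bp from that of Sdhd. It had 43.0, 52.4, 43.2 and 40.6 in fed and 31.0, 32, 24.0 and 32.4 in fasted mice at 3 h, and 21.7, 13.9, 26.5 and 27.6 in fed and 38.9, 49.9, 44.9 and 53.2 in fasted mice at 16 h. The groups did not overlap at either time, and the sign turned, from -0.56 ± 0.16 to 1.03 ± 0.16 (SE, n = 4, limma adjusted p = 0.0118 and 9.06e-06). At 24 h it was 0.72 (adjusted p = 0.00113). The 3 h call was lost without fed mouse 2 or fasted mouse 3 (adjusted p = 0.0503 and 0.0601), and those at 16 and 24 h held in every alternative. Its fed level also differed between times, from 22.4 ± 6.23 at 16 h to 44.8 ± 5.18 at 3 h (SD, n = 4, F test, adjusted p = 6.63e-05), and the F test of the fasting effect between times gave an adjusted p of 2.47e-05.

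For complex III, the promoter peak of Uqcr11, a small subunit, had 47.1, 30.2, 57.8 and 64.7 normalized reads in the fed and 68.1, 74.9, 69.4 and 66.3 in the fasted mice at 24 h. All fasted mice were above the fed mice, the nearest by little, and the change was 0.51 ± 0.15 (SE, n = 4, limma adjusted p = 0.00701). It was lost with edgeR and DESeq2 and without fed mouse 2 (adjusted p = 0.0659, 0.0710 and 0.0778). The intron peak of Uqcrq at 424 bp, named for another small subunit, opened from 8 h on, with 0.36, 0.48 and 0.64 at 8, 16 and 24 h and 0.00 at 3 h. At 24 h it had 61.8, 88.3, 80.9 and 70.9 in fed and 109, 132, 108 and 125 in fasted mice, without overlap, and the 8 h call was lost after centring (adjusted p = 0.0838). The Uqcrc2 peak at 375 bp, named for a core protein, opened at 3 h from 17.9 ± 4.89 to 31.8 ± 3.43 (SD, n = 4, 0.79, limma adjusted p = 0.00347) and at 8 h (0.53, lost after centring with an adjusted p of 0.0854), and was not called later. The intergenic Uqcrfs1 peak at -3706 bp, named for the Rieske iron-sulphur protein, opened at 8 and 16 h (0.61 and 0.54, adjusted p = 0.00741 and 0.0195), the latter not with edgeR (adjusted p = 0.0541) or without fed mouse 1 or fasted mouse 2 (adjusted p = 0.0820 and 0.0567).

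For complex IV, the Cox5a promoter peak, named for a nuclear-encoded subunit of the enzyme, had 92.4, 93.1, 119 and 110 normalized reads in the fed and 138, 153, 136 and 160 in the fasted mice at 24 h. The groups were apart, with a change of 0.49 ± 0.10 (SE, n = 4, limma adjusted p = 0.000357). At 16 h the change was 0.29 (adjusted p = 0.0273), with overlap of the mice and lost after centring (adjusted p = 0.0679), and at 3 and 8 h it did not pass. The highest peak of the complex, Cox7a2 at 55 bp, had 139 ± 9.79 in fed and 166 ± 16.1 in fasted mice at 24 h (SD, n = 4) and missed the threshold (0.25, limma adjusted p = 0.0607). Of 8 tissue-restricted subunit isoforms, Cox7a1, Cox8b and Ndufa4l2 had member peaks in hepatocytes, and Cox7a1 and Ndufa4l2 in macrophages.

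For complex V, the Atp5c1 peak at 364 bp (chr2:10080046-10080246), named for the gamma subunit of the central stalk, opened at every time. At 16 h it had 31.5, 28.6, 27.5 and 27.6 normalized reads in fed and 62.2, 58.2, 62.5 and 56.7 in fasted mice. The groups did not overlap at any of the times, and the changes were 0.76, 0.61, 1.01 and 0.47 (each ± 0.15, SE, n = 4, limma adjusted p = 0.00024, 0.00139, 2.3e-06 and 0.0123), of which the 24 h call was lost with edgeR and DESeq2 (adjusted p = 0.0720 and 0.119). The TSS of Kin lies on the opposite strand 102 bp from that of Atp5c1, so the peak may belong to either gene. The promoter peak of Atp5g1, a gene for the c subunit of the rotor ring, had 102, 93.1, 108 and 117 in fed and 159, 153, 138 and 156 in fasted mice at 24 h, without overlap (0.52 ± 0.09, SE, n = 4, limma adjusted p = 3.04e-05).

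Atp5g3, another c-subunit gene, had an exonic peak at 2025 bp that opened at 16 h, from 30.8, 23.7, 29.5 and 25.5 in fed to 44.9, 45.7, 83.4 and 37.5 in fasted mice. Fasted mouse 3 stood well above the rest, the groups did not overlap, and the change was 0.84 ± 0.21 (SE, n = 4, limma adjusted p = 0.00193). At 24 h it was -0.19 and not called. Atp5j, coupling factor 6 of the peripheral stalk, had a peak at 285 bp that opened at 3 h alone, from 48.2 ± 7.93 to 81.7 ± 9.83 (SD, n = 4, 0.74, limma adjusted p = 0.000575). The TSS of Gabpa lies on the opposite strand 148 bp from that of Atp5j. The higher Atp5j peak at 22 bp opened at 24 h alone, from 213 ± 11.0 to 259 ± 12.2 (SD, n = 4, 0.28, limma adjusted p = 0.00816), but had -0.0018 with quantile normalization. The Atp5h peak at 6786 bp, named for subunit d of the same stalk, closed at 3, 8 and 16 h by -0.87, -0.66 and -0.51 and had -0.04 at 24 h. Its 16 h call was lost without fasted mouse 1 (adjusted p = 0.0509).

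Genes that belong to the chain or serve it without being members were counted from lists, also by peaks within 10 kb. Electron carriers, ubiquinone synthesis, the flavoproteins that feed them, and genes of complexes III and IV outside the name rule formed 1 list. It had 42 peaks for 18 of 22 genes in hepatocytes, of which 4, 13, 11 and 17 opened and 1, 2, 5 and 1 closed at 3, 8, 16 and 24 h. Cycs, cytochrome c, had a promoter peak at -82 bp with 0.50 at 24 h, and Etfdh, which passes electrons from fatty acid oxidation to ubiquinone, a peak at 402 bp that opened at all times (0.40, 0.87, 0.75 and 0.56). The Etfa peak at 6426 bp closed at all times (-0.94, -1.15, -1.54 and -1.28). Assembly factors of complexes II to V, with complex I factors outside the name rule, had 68 peaks for 37 of 44 genes. Of these peaks 3, 13, 15 and 29 opened and 5, 4, 2 and 3 closed. Transcriptional regulators of mitochondrial genes had 41 peaks for 19 of 21 genes, with 7, 11, 9 and 18 opened and 1, 1, 2 and 0 closed by limma. Among these Esrra at -188 bp had 0.49 at 24 h and opened, and Tfam at -91 bp had 0.19 and no call. Uncoupling proteins and adenine nucleotide carriers had 9 peaks for 4 of 7 genes, with 1, 6, 2 and 2 opened and 0 closed at each time by limma. The backgrounds are those given for the members.

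With the macrophage values as deposited, few members passed at any time. By limma 0 of 106 opened and 0 closed at 3 h, against 0.854% and 0.121% of the other 19784 peaks, with 0 higher and 2 lower at an unadjusted p under 0.05 and 0 called by edgeR and by DESeq2. At 8 h 0 opened and 0 closed, against 1.5% and 2.67%, with 4 higher and 1 lower unadjusted, 3 opened by edgeR and 1 by DESeq2. At 16 h 8 opened and 5 closed, against 4.56% and 11.8%. At 24 h 1 opened and 0 closed, against 2.95% and 4.99%, with 8 higher and 5 lower unadjusted, and 4 opened by edgeR and 2 by DESeq2. The fasting effect differed between times in 1 member, against 2.27%. Time changed 0 members in the fed mice by limma, against 1.33%, with 10 at an unadjusted p under 0.05.

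At 16 h the split leaned further to opening when the libraries were scaled otherwise. After median centring 28 members opened and 2 closed, with quantile normalization 10 and 2, with edgeR 20 and 2 and with DESeq2 16 and 1, where 15.6, 6.74, 12.1 and 9.24% of the other peaks opened. The count opened was 4 without fed mouse 1, fed mouse 3 or fasted mouse 4, 5 without fasted mouse 1 and 13 without fasted mouse 3, and 3 closed without fed mouse 4 and 2 without fasted mouse 1. Of the calls as deposited, 6 of 8 opened and 1 of 5 closed members passed under each of the 4 scalings, and 2 and 2 passed with each mouse left out in turn. Median log2 changes of the members were -0.01, 0.01, 0.01 and 0.03 at the 4 times, against -0.01, -0.03, -0.05 and -0.01 for the other peaks. After centring they were 0.13, 0.15 and 0.13 at 8, 16 and 24 h (others 0.09, 0.09 and 0.09), with edgeR 0.10, 0.12 and 0.08 (others 0.06, 0.06 and 0.05) and with quantile normalization 0.04, 0.05 and 0.05 (others 0.02, 0.02 and 0.03). By mouse, the members stood at 0.117, 0.017, 0.038 and 0.062 above the other peaks in the fasted mice at 16 h and at -0.027, -0.026, -0.039 and -0.029 in the fed mice. The groups did not overlap at 16 h, nor at 8 h, where the fasted mice were between 0.0074 and 0.059 and the fed mice between -0.033 and 0.00079. The pooled SD within groups was 0.029. With promoter peaks alone, set against other promoter peaks, the groups stayed apart at 16 h but overlapped at 8 h. There fed mouse 2 was at 0.021 and fasted mice 1 and 4 at 0.0074 and 0.015. The member median minus that of the others was 0.020 at 8 h and 0.037 at 16 h for promoter peaks, against 0.044 and 0.059 within 10 kb.

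The macrophage calls at 16 h went in both directions within complexes I, II, IV and V, while complex III had 2 opened and 0 closed by limma. Atp5g1 at -348 bp, among the highest members, had 283, 262, 238 and 237 normalized reads in fed and 313, 306, 298 and 313 in fasted mice, without overlap (0.27 ± 0.06, SE, n = 4, limma adjusted p = 0.00231). It was the member whose fasting effect differed between times (F test, adjusted p = 0.0153). The intron peak of Sdhb at 3593 bp had 61.9, 62.3, 73.5 and 66.0 in fed and 85.1, 95.4, 92.4 and 89.1 in fasted mice, without overlap (0.45 ± 0.11, SE, n = 4, limma adjusted p = 0.00426). Another Sdhb peak in the same intron, at 2933 bp, closed at that time (-0.49, adjusted p = 0.00505, lost with DESeq2 at 0.0632), with overlap of the mice, and the Sdhb promoter peak had -0.01.

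Cox6c at 69 bp, named for a small subunit of complex IV, opened from 25.8 ± 2.43 to 38.6 ± 3.82 (SD, n = 4, 0.55, limma adjusted p = 0.0247) at 16 h, but not without fed mouse 3 or fasted mouse 2 (adjusted p = 0.0720 and 0.0569). Cox7c at -47 bp, a subunit of the same complex, had 154, 144, 137 and 133 in fed and 108, 82.5, 127 and 96.5 in fasted mice and closed without overlap (-0.47 ± 0.11, SE, n = 4, limma adjusted p = 0.0016). Uqcrq at -396 bp opened from 171, 190, 187 and 199 to 281, 214, 209 and 260 (0.35 ± 0.10, SE, n = 4, limma adjusted p = 0.0115), also without overlap, and was lost without fed mouse 1 or fasted mouse 1 (adjusted p = 0.0508 and 0.0783). Ndufa2 at 4597 bp, Atp5j2 at 23 bp and Atp5o at -1724 bp closed, with -0.51, -0.29 and -0.42 (adjusted p = 0.028, 0.0488 and 0.0317), and all of these calls were lost after centring (adjusted p = 0.0873, 0.351 and 0.115). The other opened members were Ndufa7 at 3 bp (0.34), Uqcrq at -181 bp (0.19), Atp5g1 at -10 bp (0.23) and Atp5g2 at 55 bp (0.31), each of which was lost when only the mice of the comparison entered the fit (adjusted p from 0.0949 to 0.127). At 24 h the sole opened member, chosen here after its values were seen, was the Ndufa6 promoter peak, with 219, 222, 212 and 189 in fed and 249, 222, 266 and 263 in fasted mice. The groups met at 222, with a change of 0.25 ± 0.07 (SE, n = 4, limma adjusted p = 0.0208), and the call was lost with quantile normalization or no variance trend (adjusted p = 0.0516 and 0.0557) and without fed mouse 4, fasted mouse 3 or fasted mouse 4 (adjusted p = 0.0839, 0.0799 and 0.0735).

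**Figure D5:**
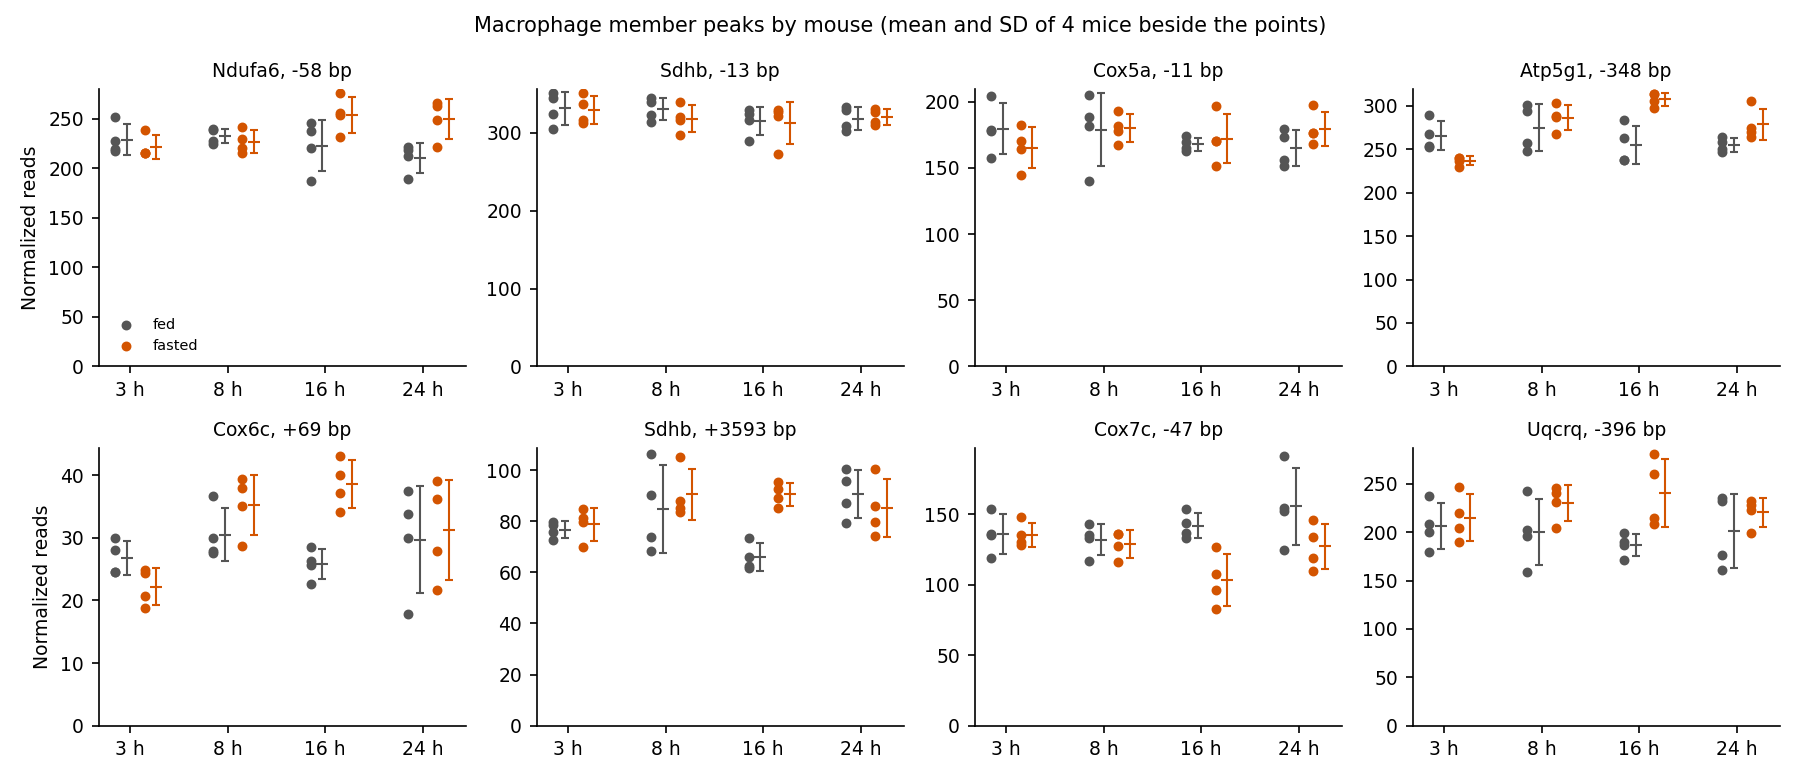
Normalized reads in macrophage nuclei (vertical axis, from 0) of selected member peaks at each time of fasting (horizontal axis). Each point is 1 mouse, grey fed and orange fasted, with the mean and SD of 4 mice beside them. Sdhb and Cox5a promoter peaks overlap between the groups at 16 and 24 h, while Atp5g1, the Sdhb intron peak and Cox7c separate the groups at 16 h.

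Of the gene lists, electron carriers with the complex III and IV genes outside the name rule had 27 peaks in macrophages. Of these peaks 3 opened at 16 h and 1 at 24 h, and none closed by limma. Assembly factors of complexes II to V, with complex I factors outside the name rule, had 59 peaks. Of these peaks 1 opened and 3 closed at 16 h, and 2 closed at 24 h. Regulators had 30 peaks, with 1 opened at 8 h, 2 closed at 16 h and 1 closed at 24 h. Uncoupling proteins and nucleotide carriers had 12 peaks, with 1 opened at 8 h, 2 closed at 16 h and 1 opened at 24 h. Of the other peaks 1.5, 4.56 and 2.95% opened and 2.67, 11.8 and 4.99% closed at 8, 16 and 24 h.

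The same coordinates carried a member in both tables for 95 peaks, 68.8% of the hepatocyte and 89.6% of the macrophage members, 90 of them promoter peaks. Of these 95, 1, 15, 32 and 52 opened and 3, 1, 0 and 0 closed in hepatocytes at 3, 8, 16 and 24 h. In macrophages 0, 0, 6 and 1 opened and 0, 0, 2 and 0 closed. Both cell types opened 3 of them at 16 h and 1 at 24 h, and 0 were called in opposite directions. Another 12606 peaks within 10 kb had the same coordinates in both tables. Of these 6.08, 17.8, 21.1 and 46.3% opened in hepatocytes and 0.563, 1.84, 6.32 and 3.66% in macrophages, 3.52% opened in both at 16 h and 3.11% at 24 h, and 26 and 13 were called in opposite directions at those times. Of the same other peaks 3.34, 2.24, 1.30 and 1.13% closed in hepatocytes and 0.103, 0.539, 6.40 and 2.37% in macrophages. The median log2 fold changes of the 95 shared members were -0.06, 0.15, 0.23 and 0.30 in hepatocytes, and -0.01, 0.02, 0.02 and 0.03 in macrophages. The Ndufa6 promoter peak opened in both at 24 h, with 0.55 in hepatocytes and 0.25 in macrophages, the latter not with quantile normalization (adjusted p = 0.0516). The Sdhb promoter peak rose by 0.44 in hepatocytes at 24 h and had 0.01 in macrophages. The tables were normalized separately, so the difference between the cell types was not tested. In nuclei pooled from a liver, fewer nuclei with an open site and less signal per nucleus cannot be told apart.

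The 10 kb limit fell between the Ndufa8 peaks at 9513 and 9806 bp inside and the Ndufs7 peak at -10978 bp and the Atp5j peak at 11012 bp outside in hepatocytes. In macrophages it fell between Atp5h at 7087 bp and Cox8a at -9151 bp inside and Ndufa9 at 12311 bp and Sdhd at 12862 bp outside. Beyond the limit lay 43 hepatocyte and 30 macrophage peaks named for genes of the same name patterns.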

How the data were processed

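Per the labels, nuclei of 32 mice per cell type were transposed and sequenced in pairs of reads. The submitters' processing notes name BWA 0.7.5a-r405, SAMtools, HOMER, DESeq2 and mm10, without the role of each. For each cell type the authors deposited a table of normalized signal, with a value for every 200-bp peak in every mouse. All values were whole multiples of 1 step per library (tolerance 0.01 of a read), so they are reads divided by a factor whose origin is not stated. Fasted and fed mice were compared with limma 3.58.1 (R 4.3.3) after adding 2 and taking log2, so fold changes of low peaks are understated, with 8 group means per table, a variance trend and Benjamini-Hochberg adjustment over all peaks with a mean of at least 10. edgeR 4.0.16 and DESeq2 1.42.0 on the recovered reads, other offsets, filters and scalings, and each mouse left out were alternatives. The scripts were tested on simulated data.

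Members and gene lists were chosen with earlier results of these data known. Peaks were named by rule: at each time the 3 opened and 3 closed members of largest change among those called without overlap of the mice, 1 peak per gene, and the highest promoter peak of each complex. The other peaks named, the printed promoters included, were chosen after their values were seen. Coordinates are those of the tables.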

Additional observations from a re-analysis of the deposited data

Results flagged for a closer look

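Among 288 groups of 4 mice, 11 held a mouse whose gap to the nearest other exceeded Dixon's critical share of the group's range, where chance alone gives about 1 in 20. In hepatocytes the mouse apart had 93.6 normalized reads at the Ndufs7 peak at 5374 bp in fed mice at 3 h and 17.8 there in fasted mice at 8 h. At the Atp5h peak at 6786 bp it had 71.3 in fed mice at 3 h and 113 in fed mice at 8 h. The others were 179 at the Uqcrq peak at -181 bp in fed mice at 3 h, 37.1 at the Uqcrfs1 peak at -3706 bp in fed mice at 8 h, 278 at the Atp5j peak at 22 bp in fasted mice at 24 h, and 24.0 at the Sdhd peak at 1649 bp in fasted mice at 3 h. In macrophages they were 273 at the Sdhb promoter peak in fasted mice at 16 h, 206 at the Cox4i1 peak at 10 bp in fasted mice at 3 h, and a member deviation of 0.00079 above the other peaks in fed mice at 8 h.

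The fasting effect differed between the 4 times, by limma's F test, at 9 of the hepatocyte peaks named by rule. Adjusted p-values were 2.47e-05 for Sdhd at 1649 bp, 0.00287 for Ndufaf8 at 544 bp, 0.00329 for Ndufa4l2 at 1314 bp, 0.00777 for the Sdhb promoter peak, 0.0270 for Atp5h at 6786 bp, 0.0342 for Atp5g3 at 2025 bp, 0.0349 for Ndufaf3 at 349 bp, 0.0374 for Uqcrq at 424 bp and 0.0446 for Atp5j at 285 bp. In macrophages it was 0.0153 for Atp5g1 at -348 bp.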

How the results depend on the processing

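Over the settings tried, 309 of 356 member counts and median differences stayed within 1.5 times the count reported or within 1 SD of the median difference. Of the called peaks, 1766 of 2158 values kept their call, 387 lost it and 5 turned in sign, all with quantile normalization at 24 h in hepatocytes: Atp5e at -70 bp (-0.0778), Atp5j at 22 bp (-0.0018), Ndufv2 at -43 bp (-0.0428), Ndufb5 at -107 bp (-0.0519) and Ndufs6 at -76 bp (-0.0011). The cause was not tested. With a mouse left out, 1058 of 1448 calls stayed and 390 were lost.

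Hepatocyte members opened at 8, 16 and 24 h numbered 12, 22 and 37 after median centring, 13, 15 and 24 with quantile normalization, 13, 18 and 26 with edgeR and 11, 18 and 24 with DESeq2. After centring that is 8.70, 15.9 and 26.8% of the members beside 13, 13.5 and 21% of the other peaks. With quantile normalization it is 9.42, 10.9 and 17.4% beside 13.9, 10.1 and 12.4%. With edgeR it is 9.42, 13.0 and 18.8% beside 14.5, 11.6 and 13.4%. With DESeq2 it is 7.97, 13.0 and 17.4% beside 13.3, 11.4 and 12.3%. Closed members were 7 at 3 h and 3 at 24 h with a mean of at least 30, 8 at 24 h with quantile normalization, and 3, 2, 0 and 0 at the 4 times within 1 kb. With only the mice of the comparison, 20 opened and 4 closed at 16 h. Members that differed between times in fed mice numbered 13 after centring, and those whose fasting effect differed between times 19 with quantile normalization and with edgeR.

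Macrophage members opened at 16 h numbered 28 after centring, 20 with edgeR, 16 with DESeq2 and 4 with only the mice of the comparison. Closed ones were 2 after centring, with quantile normalization, with only those mice, with edgeR and within 1 kb, and 1 with DESeq2. At 8 h 2 opened after centring, 3 with edgeR, 1 with DESeq2 and 1 with a replicate block. Of the other peaks 4.18, 4.79 and 2.69% opened then after centring, with edgeR and with DESeq2. At 24 h 11 opened after centring, 2 with quantile normalization (and 1 closed), 4 with edgeR and 2 with DESeq2. Of the other peaks 8.57, 3.77, 6.83 and 4.8% opened under these settings, and 3.05% closed with quantile normalization. The member median minus that of the other peaks at 16 h was 0.0223 with quantile normalization, against 0.0593. The fasting effect differed between times in 5 members after centring and 0 without the variance trend, where limma as reported gave 1 and 14 passed unadjusted, and 1 differed in fed mice with quantile normalization.

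With each mouse left out, the hepatocyte counts ran from 6 to 9 closed at 3 h, 10 to 28 opened and 5 to 8 closed at 8 h, 20 to 50 opened at 16 h, 42 to 63 opened and 3 to 5 closed at 24 h, and 13 to 22 that differed between times in fed mice. The macrophage counts ran from 0 to 1 opened at 8 h, 4 to 13 opened and 2 to 7 closed at 16 h, 0 to 2 opened and 0 to 2 closed at 24 h, 1 to 2 whose fasting effect differed between times and 0 to 1 that differed in fed mice, and the median difference at 16 h from 0.0556 to 0.0906.

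Replicate numbers were given in accession order and pair no mice. A replicate block on sets of library numbers changed no other count by over 1.5 times, and the mean correlation of deviations was 0.0019 within and -0.0010 between sets in hepatocytes and 0.033 and -0.033 in macrophages. Depth limits the low peaks most, such as Ndufaf4 at -1853 bp with 10.8 to 27.3 normalized reads at 24 h, and 4 mice a group limit all comparisons.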
